A study of Mus musculus with 98 samples.

Results

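The insulin-like growth factor 1 (IGF1) axis of the mouse thymic stroma was described through 8 genes, which were *Igf1* (ENSMUSG00000020053), its receptor *Igf1r* (ENSMUSG00000005533) and the binding protein genes *Igfbp2* (ENSMUSG00000039323), *Igfbp3* (ENSMUSG00000020427), *Igfbp4* (ENSMUSG00000017493), *Igfbp5* (ENSMUSG00000026185), *Igfbp6* (ENSMUSG00000023046) and *Igfbp7* (ENSMUSG00000036256). They were chosen by name, not by a measured value, and all 8 were found among the 22231 genes of the single-cell table of nonepithelial thymic stroma (NETS), the 20760 genes of the newborn table and the 39179 gene identifiers of the bulk table. The NETS data held 36208 live Ter119-CD45-EpCAM- cells of wild-type C57BL/6 thymi from 8 droplet libraries, 1 each from E12.5 and E13.5 (E, embryonic day), for which embryos of 2 litters had been pooled, and 2 each from E16.5, the day of birth (P0) and 4 weeks of age (W4). The newborn data held 21451 Ter119-CD45- cells of P0 thymi, epithelium included, from 3 libraries labelled *Tbx1*+/-*Crkl*+/- and 3 wild-type littermate libraries; the mutants carried 1 null allele of each gene in the germ line, hence in all cells, and the cells had been fixed before capture. The bulk data held 84 wild-type libraries of sorted populations, 6 for each of 14 groups. These were CD31+ (endothelium), Ly51+gp38- (pericytes and vascular smooth muscle), gp38+CD26+ (fibroblasts of the capsule), gp38+CD26- (mainly fibroblasts of the medulla, with CapFb1 cells of the capsule), cortical thymic epithelial cells (cTEC) and medullary ones (mTEC), each at P0 and W4, and mTEChi and mTEClo at W4. No label gave the sex of the mice or said whether the bulk replicates came from separate animals, so p-values measure the spread between libraries, which may be partly technical.

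IGF1 is a secreted growth factor that acts through the receptor tyrosine kinase IGF1R, and it is made in the liver under growth hormone and in many tissues by their mesenchyme. The binding proteins IGFBP2 to IGFBP6 hold IGF1 and IGF2 outside the cell with high affinity and either withhold them from the receptor or keep a local store of them, which proteases release. IGFBP7 binds IGFs weakly and is known mainly as a protein of blood vessels and their basement membrane. In the thymus, IGF1 is known for increasing the number of epithelial cells.

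The 83 bulk libraries used held 5785352 to 15852166 counts in genes, and 1 gp38+CD26+ library of W4 with 25702 counts was left out, so that this group has n = 5 and every other group n = 6. NETS libraries held 1997 to 6587 cells with medians of 10005 to 14031 unique molecular identifiers (UMIs) a cell, and newborn libraries 1687 to 5661 cells with medians of 2391 to 4686. Any pair of NETS libraries shared at most 14 cell barcodes, and any newborn pair at most 5. The sorted populations carried the markers of their labels, with summed levels in counts per 1e+06 counts (CPM) of 2362 to 6478 for endothelial genes in CD31+, 30202 to 113586 for mural genes in Ly51+gp38-, 20120 to 55862 for fibroblast genes in the gp38+ populations and 14063 to 28980 for epithelial genes in cTEC. In mTEC the epithelial sum was lower, at 1923 to 4668 CPM. The summed level of hemoglobin and other red cell genes had medians of 0.141 to 39.9 CPM at P0 and 207 to 2927 CPM at W4 over the 6 populations, with no overlap between the ages except in CD31+, and its part in the results was not tested. *Crkl* did not separate the genotype labels, at 23.6 to 26.9 CPM in the libraries labelled *Tbx1*+/-*Crkl*+/- and 18.4 to 25.1 CPM in the wild type, and *Tbx1* had 0 to 19 UMIs a library. Whether the sequenced 3′ ends lie outside the altered parts of these alleles was not given, so neither gene checks the labels.

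Between birth and 4 weeks, *Igfbp2* fell in most NETS subtypes and *Igfbp6* and *Igfbp7* rose in the fibroblasts, while *Igf1* rose in capsular fibroblasts, *Igfbp3* fell in medullary fibroblasts and *Igf1r* changed in 2 subtypes. In the 19 subtypes that the authors had labelled, 17 had at least 20 cells in every P0 and W4 library and were tested on UMIs summed per subtype and library (edgeR quasi-likelihood test, Benjamini-Hochberg adjusted p under 0.05 over all genes of a subtype). Mesothelium (Mes) and neural crest (NCC) had too few cells. *Igfbp6* passed as higher in 15 of 17 subtypes, of which 3 (capillary endothelium, pericytes and vascular smooth muscle) were not above its level in endothelial droplets in both W4 libraries. *Igfbp7* rose in 16, and *Igfbp2* fell in 15. *Igf1* rose in 7 and fell in 4, *Igfbp3* rose in 3 and fell in 6, *Igfbp4* rose in 4 and fell in 3, *Igfbp5* rose in 6 and passed as lower in 7, 1 of them venous and lymphatic endothelium (EnVL), whose droplet level exceeded that of sorted endothelium, and *Igf1r* fell in 2. Of the pairs of the 8 members and these 17 subtypes, 51 were higher and 37 lower at W4, against 13.7% of all pairs of gene and subtype higher and 13.9% lower. Over the 5 ages together, 93.4% of the pairs changed, all but 9, against 55.3% of all genes' pairs. The libraries of P0 and W4 did not overlap in 85 of the 88 pairs that passed and in 15 of the 48 that did not. With 2 libraries at each age, groups often separate without a change, and the share over all genes was not counted. The pairs that passed were picked by a test on the same values, so these counts are a description only. The median log2 fold change of all genes lay between -0.079 and 0.009 in every subtype.

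**Figure D1:**
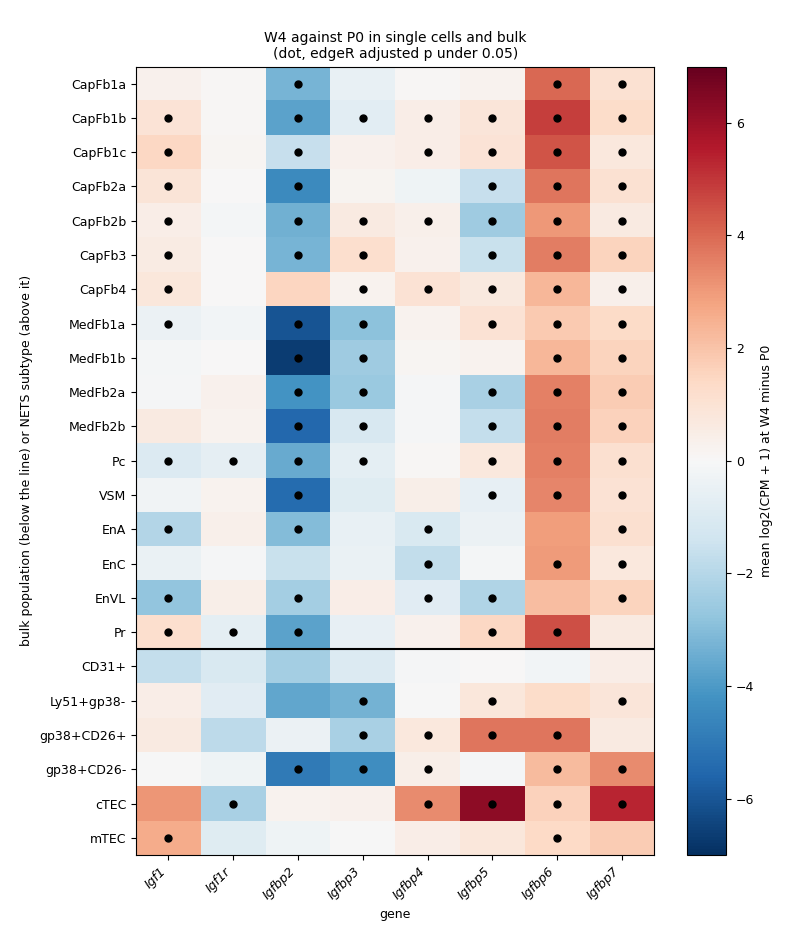
Difference between W4 and P0, as the mean log2(CPM + 1) at W4 minus that at P0, for the 8 genes (columns) in 17 NETS subtypes (rows above the line) and 6 bulk populations (rows below it). A dot marks an edgeR adjusted p under 0.05. The *Igfbp2* column is blue in the subtypes except CapFb4, and the *Igfbp6* and *Igfbp7* columns are red in all 17. Whether the droplets of endothelium, Pc and VSM held *Igfbp6* RNA of other cells was not tested.

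In the sorted populations, the same comparison was made on bulk counts (edgeR quasi-likelihood test, adjusted over all genes tested in a population), where fewer cells of a type and less RNA per cell cannot be told apart. In gp38+CD26-, 3 genes rose (*Igfbp4*, *Igfbp6*, *Igfbp7*) and 2 fell (*Igfbp2*, *Igfbp3*), against 12.9% of all genes higher and 11.5% lower. In gp38+CD26+, 3 rose (*Igfbp4*, *Igfbp5*, *Igfbp6*) and 1 fell (*Igfbp3*), against 7.27% and 5.93%. In Ly51+gp38-, *Igfbp5* and *Igfbp7* rose and *Igfbp3* fell, against 6.44% and 5.45%. In cTEC, 4 rose (*Igfbp4*, *Igfbp5*, *Igfbp6*, *Igfbp7*) and *Igf1r* fell, against 12.3% and 9.99%, and in mTEC *Igf1* and *Igfbp6* rose, against 3.64% and 2.35%. In CD31+, 0 of 6 genes tested passed in edgeR, against 3.19% of all genes higher and 1.91% lower; 2020 of 11333 genes had an unadjusted p under 0.05, and DESeq2 called 1 of the members. The 19 calls kept their direction with the libraries of either name prefix (DFCK or TXCK, 3 libraries a group, meaning not given), and 11 of them passed with DFCK alone and 15 with TXCK alone. *Igfbp2* and *Igfbp6* in CD31+ and *Igfbp7* in mTEC were below the filter on low counts.

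**Figure D2:**
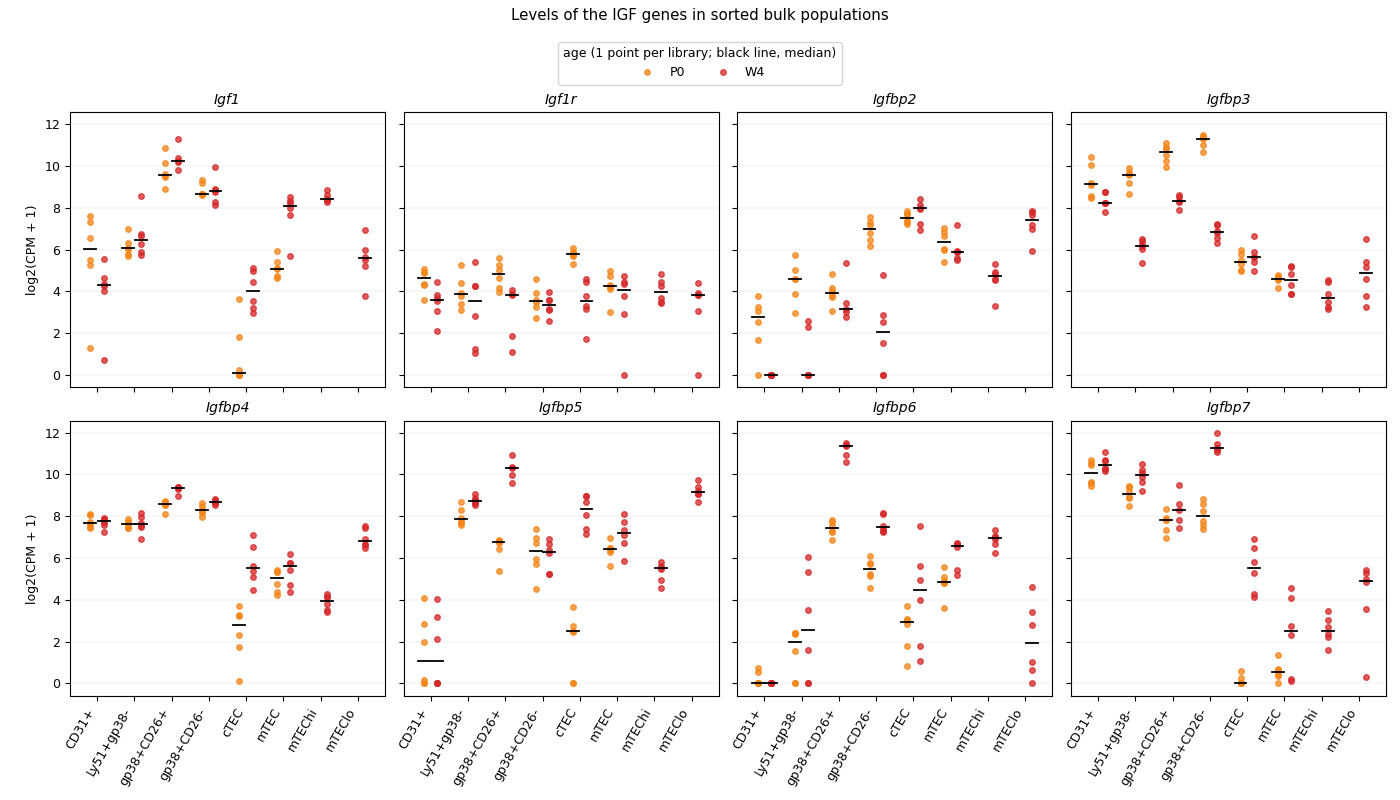
Levels of the 8 genes, as log2(CPM + 1), in the sorted bulk populations at P0 and W4 (1 point per library, black line the median). The fall of *Igfbp3* is seen in Ly51+gp38- and both gp38+ populations, and the rise of *Igfbp6* in both gp38+ populations, with no overlap between the ages in these.

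*Igf1* (GRCm38.p6 chromosome 10, 87858265 to 87937047, plus strand) was measured mainly in capsular fibroblasts (CapFb). Its mean level over the 8 NETS libraries was 1087 ± 536 CPM (SD, n = 8) in the subtype CapFb3, 717 ± 337 CPM in CapFb2b and 477 ± 256 CPM in CapFb2a. It was 74.5 ± 24.1 CPM in MedFb2a, a medullary fibroblast (MedFb) subtype, and lowest in vascular smooth muscle (VSM) at 16.9 ± 9.13 CPM. None of the 18 pairs of neighbours in this order differed by more than the larger SD of the pair. This SD runs over all ages, so it holds the change with age as well as the spread of replicates. At P0 CapFb3 was at 1189 and 1081 CPM and CapFb2b at 768 and 682 CPM. At W4 they were at 1631 and 1728 CPM and at 1039 and 950 CPM. Since the subtype labels were made from these counts, no test between subtypes was run. In the W4 libraries capsular fibroblasts held 84.9% and 88.3% of all *Igf1* UMIs and 27.1% and 36.9% of the cells.

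The *Igf1* level of CapFb3 was 180 CPM at E12.5 and 1494 CPM at E13.5 (1 library each), 678 and 716 CPM at E16.5, 1189 and 1081 CPM at P0 and 1631 and 1728 CPM at W4. Both W4 libraries were above both P0 libraries, and the log2 fold change of W4 against P0 was 0.69 ± 0.11 (SE, adjusted p = 0.00402, edgeR). *Igf1* rose in 6 of 7 capsular subtypes, most in CapFb1c, where it was 386 and 212 CPM at P0 and 674 and 908 CPM at W4 (1.4 ± 0.20, adjusted p = 5.73e-05, edgeR). It fell in EnVL, from 114.6 and 77 to 8.43 and 20.5 CPM (log2 fold change -2.84 ± 0.33), and in pericytes (Pc), from 61.9 and 45.7 to 24.1 and 29.8 CPM. In MedFb1a it fell from 181.7 and 152 to 116 and 131.2 CPM, a call that was lost without W4 replicate 1 (adjusted p = 0.0872, edgeR). The call in arterial endothelium (EnA) rested on P0 replicate 1 at 141 CPM beside 3.27 CPM in replicate 2, and without that library the log2 fold change was 0.79 (adjusted p = 0.842, edgeR). The rise in proliferating cells (Pr) was lost without W4 replicate 1 (adjusted p = 0.072, edgeR).

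In bulk, *Igf1* was highest in gp38+CD26+, with 479 CPM as the lowest, 764 as the median and 1867 as the highest library at P0, and 903, 1204 and 2542 CPM at W4. These groups overlapped, and the difference did not pass (log2 fold change 0.66 ± 0.35, adjusted p = 0.262, edgeR), except without P0 replicate 4 (1.0, adjusted p = 0.0303, edgeR) or with the prefix TXCK alone (adjusted p = 0.0132, edgeR). In gp38+CD26- the level was 386, 407 and 641 CPM at P0 and 283, 447 and 1001 CPM at W4, and in Ly51+gp38- 51.4, 65.8 and 126 CPM against 52.3, 87.1 and 380 CPM, with overlap in both. In CD31+ it was 1.48, 68.7 and 196 CPM at P0 and 0.631, 18.9 and 46.5 CPM at W4 (adjusted p = 0.252, edgeR). The median of CD31+ was lower at W4, like the levels in EnVL, but the bulk groups overlapped.

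Medullary epithelium was the bulk population in which *Igf1* rose with age. In mTEC its lowest, median and highest levels were 24.1, 32.8 and 59.5 CPM at P0 and 50.3, 273 and 362 CPM at W4 (log2 fold change 2.80 ± 0.40, adjusted p = 0.000893, edgeR), with overlap through 1 W4 library. At W4 it was 310, 345 and 461 CPM in mTEChi and 12.6, 46.8 and 121 CPM in mTEClo, the subsets with high and low surface MHC class II, with no overlap (2.94 ± 0.40, adjusted p = 0.000258, edgeR). In cTEC it was 0, 0.0807 and 11.5 CPM at P0 and 6.80, 15.8 and 33.5 CPM at W4, and the difference passed only without P0 replicate 1, the library at 11.5 CPM (log2 fold change 5.16, adjusted p = 0.00688, edgeR). The newborn wild-type data likewise held *Igf1* in some epithelial subtypes, with 104 ± 34.4 CPM in the neural one (nTEC, n = 3 libraries), 73.8 ± 29.1 CPM in mature medullary cells (MmTEC) and 2.54 ± 1.19 CPM in perinatal cortical cells (PcTEC), beside 549 ± 48.9 CPM in CapFb2b. The nTEC also held *Igfbp3* at 1108 CPM and *Igfbp7* at 1230 CPM, above the 68.7 to 222 CPM and 97.8 to 337 CPM of the 6 other epithelial subtypes compared. Whether they held RNA of other cells was not tested.

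**Figure D3:**
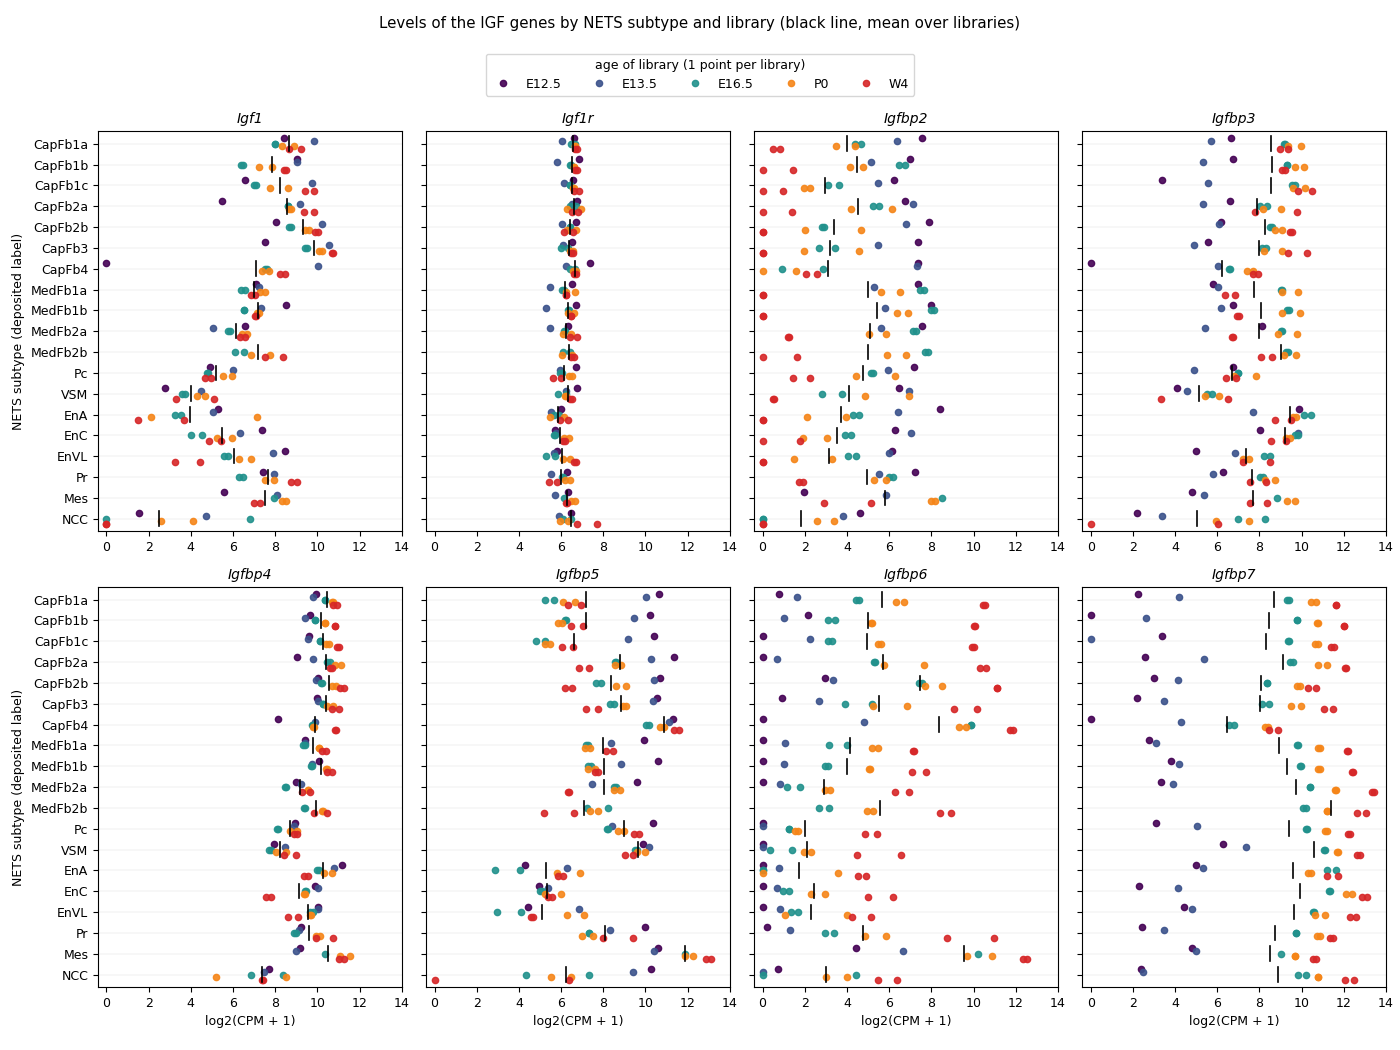
Level of each gene, as log2(CPM + 1) of the UMIs summed per subtype and library, in the 19 NETS subtypes (rows), with 1 point per library coloured by age and a black line at the mean. *Igf1* is high in the CapFb rows and *Igf1r* is nearly level across the rows, while the W4 points of *Igfbp2* lie to the left of those of P0 in all rows but CapFb4 and those of *Igfbp6* and *Igfbp7* to the right.

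*Igf1r* (chromosome 7, 67952257 to 68233668, plus strand), the receptor, had the flattest profile of the 8 genes. Its mean level ran from 102 ± 26.9 CPM in CapFb4 to 58.5 ± 12.2 CPM in EnA (SD, n = 8), and no neighbours in that order differed beyond their SD over all ages. At P0 the subtype means lay between 56.1 and 100 CPM and at W4 between 48.9 and 106 CPM. It fell in Pc, from 81 and 91.8 to 62.5 and 48.8 CPM (log2 fold change -0.82 ± 0.12, adjusted p = 0.000378, edgeR), and in Pr (-0.84 ± 0.21), where the call was lost without P0 replicate 2 or either W4 library (adjusted p from 0.0525 to 0.206, edgeR).

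Cortical epithelium was the bulk population in which the fall of *Igf1r* passed. The median was lower at W4 in every other population too. No difference of the age effect between the 6 populations passed (adjusted p = 0.407, edgeR quasi-likelihood F test of the interaction), so the fall is not shown to be particular to cTEC. In cTEC the lowest, median and highest libraries were at 38.9, 54 and 67.2 CPM at P0 and at 2.24, 10.8 and 23.1 CPM at W4, with no overlap (log2 fold change -2.05 ± 0.41, adjusted p = 0.00262, edgeR). Markers of other cell types were higher in the same W4 libraries, as given with *Igfbp5*, and their part in this fall was not tested. In mTEC it was 6.98, 18.4 and 30.1 CPM at P0 and 0, 15.9 and 25.4 CPM at W4 (adjusted p = 0.862, edgeR). In gp38+CD26+ it was 14.7, 27.6 and 47.5 CPM at P0 and 1.12, 13.4 and 15.7 CPM at W4. In CD31+ it was 10.9, 24 and 32.8 CPM against 3.33, 11.2 and 20.8 CPM. The ages overlapped in both, and neither passed. In newborn wild-type thymi it was 287 ± 114.8 CPM in mature cortical cells (McTEC), 277 ± 98 CPM in PcTEC and 78.1 CPM in MmTEC (n = 3). NCC, at 289 ± 114.97 CPM, rested on 6 to 16 cells and 3 to 16 UMIs a library.

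*Igfbp2* (chromosome 1, 72824480 to 72852474, plus strand) was the binding protein that passed as lower at W4 in the largest number of NETS subtypes. At P0 its mean level over the 17 subtypes tested ran from 0.994 to 100 CPM with a median of 21.4, and at W4 from 0 to 4.06 CPM with a median of 0.587. The 2 W4 libraries held 57 *Igfbp2* UMIs in these subtypes, against 5120 at P0, and a further 3 and 74 UMIs in mesothelium. The highest means were 143.6 ± 152 CPM in mesothelium (SD, n = 7) and 130.8 ± 117 CPM in MedFb1b (n = 8). In MedFb1b it was 252 CPM at E12.5, 55.7 CPM at E13.5, 283 and 255 CPM at E16.5, 81.1 and 119.3 CPM at P0 and 0 in both W4 libraries. The P0 level of MedFb1b was at least 280-fold higher than the floor of 3 UMIs over the W4 libraries allows, that of MedFb1a at least 52.7-fold and that of CapFb2b at least 33-fold. In MedFb2a, where 11 UMIs remained, it fell from 31.5 and 56.4 to 1.3 and 1.4 CPM (log2 fold change -5.09 ± 0.40, adjusted p = 3.83e-07, edgeR). CapFb4 and capillary endothelium (EnC) did not pass, and CapFb4 had 1.99 and 0 CPM at P0 and 4.90 and 3.22 CPM at W4. Of the 15 calls, 8 were lost without 1 library, in CapFb1c, CapFb2a, CapFb3, EnA, EnVL, Pc, Pr and VSM; 7 of them were lost without W4 replicate 1 and 6 without W4 replicate 2 (adjusted p from 0.0554 to 0.211, edgeR), 1 without P0 replicate 1 (0.354) and 2 without P0 replicate 2 (0.0834 and 0.191). The log2 fold changes of these lost calls stayed below 0, from -7.97 to -1.75. In mesothelium, which was not tested, the level was 290 and 253 CPM at P0 and 6.58 and 34.5 CPM at W4.

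In bulk, *Igfbp2* fell in gp38+CD26-, the sort that holds medullary fibroblasts and CapFb1 cells, and no change with age passed in the epithelium. In gp38+CD26- *Igfbp2* was 71.4, 128 and 189 CPM (lowest, median, highest) at P0 and 0, 3.40 and 26.1 CPM at W4, with no overlap (log2 fold change -4.12 ± 0.96, adjusted p = 0.00603, edgeR). In Ly51+gp38- it was 6.83, 23.0 and 52.3 CPM at P0 and 0, 0 and 5.0 CPM at W4, again with no overlap, and did not pass in edgeR (adjusted p = 0.0865) but did in DESeq2 (0.0293). In cTEC it was 146.4, 183.99 and 232 CPM at P0 and 120, 249.2 and 342 CPM at W4 (adjusted p = 0.277, edgeR), and in mTEC 41.1, 81.9 and 130 CPM against 44.7, 57.8 and 143.98 CPM. Within the medulla at W4 it was lower in mTEChi, at 8.99, 25.3 and 38.6 CPM, than in mTEClo, at 59.7, 172.5 and 227 CPM (log2 fold change -2.52 ± 0.37, adjusted p = 0.00036, edgeR). In the newborn wild type the highest means were epithelial, with 192.4 ± 80.1 CPM in intertypical cells (ItTEC), 143.02 ± 55.2 CPM in PcTEC and 141 ± 64.0 CPM in proliferating epithelial cells (PrTEC), followed by MedFb1b at 124.1 ± 93.7 CPM (SD, n = 3).

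*Igfbp3* (chromosome 11, 7206086 to 7215498, minus strand), the main carrier of IGF1 in blood, was measured in endothelium and fibroblasts, with means over the libraries of all ages of 801 ± 367 CPM in EnA, 734 ± 489 CPM in CapFb1c and 645 ± 233 CPM in EnC, and 42.7 ± 26.9 CPM in VSM (SD, n = 8). At W4 CapFb1c, at 1424 and 919 CPM, was above EnA, at 433 and 726 CPM. At P0 in the NETS CapFb1b, at 828 and 1101 CPM, had the highest mean of the 17 subtypes tested. EnA was at 765 and 864 CPM and EnC at 609 and 699 CPM. The newborn wild type, all of P0, likewise had its highest mean in CapFb1b, at 2017 ± 496 CPM. There MedFb1a was at 1940 ± 568 CPM, EnC at 494 ± 140 CPM and EnA at 479 ± 143.1 CPM (n = 3). Between P0 and W4 it fell in all 4 medullary fibroblast subtypes. In MedFb1a it was 535 and 913 CPM at P0 and 114.5 and 80.3 CPM at W4 (log2 fold change -3.00 ± 0.20, adjusted p = 1.67e-09, edgeR), after 55.2 CPM at E12.5, 64.4 CPM at E13.5 and 543 and 520 CPM at E16.5. The log2 fold change was -2.62 ± 0.19 in MedFb1b, -2.68 ± 0.21 in MedFb2a and -1.11 ± 0.18 in MedFb2b. Among capsular subtypes it fell in CapFb1b (-0.78 ± 0.12) and rose in CapFb2b, from 420 and 536 to 755 and 690 CPM (0.70 ± 0.12, adjusted p = 0.000951, edgeR), CapFb3 (1.28) and CapFb4 (0.36). The CapFb3 call was lost without W4 replicate 1 (adjusted p = 0.113, edgeR), that of CapFb4 without P0 replicate 1 or W4 replicate 1 (0.199 in both), and that of Pc (log2 fold change -0.97) without P0 replicate 2 or either W4 library (0.0516 to 0.227). In the 3 endothelial subtypes it did not pass.

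The bulk fall of *Igfbp3* was seen in the 3 mesenchymal populations. In gp38+CD26- it was 1599, 2530 and 2876 CPM at P0 and 77.5, 115.3 and 146.01 CPM at W4 (log2 fold change -4.25 ± 0.20, adjusted p = 7.47e-09, edgeR). In Ly51+gp38- it was 410, 762 and 962 CPM at P0 and 39.9, 72.0 and 88.3 CPM at W4 (-3.22 ± 0.24), and in gp38+CD26+ 978, 1629 and 2179 CPM at P0 and 233, 321 and 388 CPM at W4 (-2.19 ± 0.21), with no overlap in any of the 3. The log2 fold change in gp38+CD26+ was negative while CapFb2b, CapFb3 and CapFb4 rose in single cells and CapFb1b fell. In the Ly51+gp38- libraries the 5 fibroblast markers summed to 1807 to 7663 CPM (median 2917) at P0 and 1179 to 4261 CPM (median 1740) at W4. These sums overlapped, and their part in the *Igfbp3* values was not tested. Of the single-cell subtypes of Ly51+gp38-, VSM did not pass, at 41.3 and 66.9 CPM at P0 and 8.97 and 88.7 CPM at W4, and Pc overlapped, at 110 and 227 against 84.1 and 118.3 CPM. In CD31+ it was 350, 562 and 1389 CPM at P0 and 219, 299 and 433 CPM at W4, which passed only without P0 replicate 1 (adjusted p = 0.0444 against 0.0995 with it, edgeR). In cTEC and mTEC all libraries lay between 13.7 and 98.6 CPM and the ages overlapped.

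*Igfbp4* (chromosome 11, 99040005 to 99052655, plus strand), a substrate of the protease PAPP-A, was present in every NETS subtype, from 1712 ± 941 CPM in Mes (n = 7) and 1572 ± 556 CPM in CapFb2b to 313 ± 99.8 CPM in VSM and 196 ± 107.01 CPM in NCC (SD, n = 8). Pc and VSM, and VSM and NCC, were the 2 neighbouring pairs in this order that differed beyond their larger SD over all ages. With age it rose in 4 of 7 capsular subtypes and fell in all 3 endothelial ones. In CapFb4 it was 916 and 888 CPM at P0 and 1798 and 1892 CPM at W4 (log2 fold change 1.12 ± 0.07, adjusted p = 2.6e-12, edgeR), and it also rose in CapFb1b (0.46), CapFb1c (0.46) and CapFb2b (0.46), the last not without W4 replicate 1 (adjusted p = 0.0644, edgeR). In CapFb2a it was lower at W4 with no overlap, at 2242 and 1839 CPM against 1565 and 1680 CPM, and did not pass (-0.31 ± 0.12, adjusted p = 0.0954, edgeR). CapFb1a (0.156) and CapFb3 (0.0639) did not pass either. In EnC it was 951 CPM at E12.5, 680 and 668 CPM at P0 and 188 and 220 CPM at W4 (-1.78 ± 0.11, adjusted p = 3.92e-05, edgeR), and it fell in EnA (-1.18 ± 0.19) and EnVL (-0.84 ± 0.15) as well.

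In bulk, *Igfbp4* rose in gp38+CD26+ from 279, 385 and 427 CPM (lowest, median, highest) to 493, 654 and 682 CPM, with no overlap (log2 fold change 0.85 ± 0.14, adjusted p = 0.00132, edgeR); with the shallow library included the difference did not pass (0.70, adjusted p = 0.19). The mesothelial marker sums of these libraries, given with *Igfbp5*, were also higher at W4. In gp38+CD26- it rose from 246, 310 and 395 CPM to 373, 412 and 452 CPM, with some overlap (0.52 ± 0.11). In CD31+ it was 174.8, 204 and 271 CPM at P0 and 153, 215 and 243 CPM at W4, a difference of 0.04 ± 0.16 on the log2 scale that did not pass (adjusted p = 0.953, edgeR), whereas all 3 endothelial subtypes fell in single cells. At W4 it was 9.67, 14.6 and 18.3 CPM in mTEChi and 89.4, 111.5 and 183.6 CPM in mTEClo (-2.99 ± 0.26, adjusted p = 1.01e-05, edgeR).

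*Igfbp5* (chromosome 1, 72858065 to 72874865, minus strand) lies tail to tail with *Igfbp2*, 5590 bases away. It was highest in Mes at 4529 ± 2850 CPM (SD, n = 7), followed by CapFb4 at 2014 ± 712 CPM and VSM at 822 ± 208 CPM (n = 8), and lowest in EnC at 40.2 ± 10.8 CPM. CapFb4 exceeded VSM, the next in order, by more than the larger SD, and MedFb2b exceeded EnA. Mesothelium was 1.25% and 4.8% of the cells of the W4 libraries and held 27.7% and 54.5% of their *Igfbp5* UMIs.

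Between P0 and W4, *Igfbp5* rose in some fibroblast subtypes and fell in others. It fell in CapFb2b, from 545 and 387 to 91.7 and 72.7 CPM (log2 fold change -2.41 ± 0.17, adjusted p = 1.36e-06, edgeR), and also in CapFb2a, CapFb3, MedFb2b and VSM. It passed as lower in EnVL too, from 77.3 and 134.1 to 22.5 and 24.1 CPM. Sorted CD31+ cells, of which EnVL is a part, had medians of 1.53 CPM at P0 and 1.70 CPM at W4 and at most 15.8 CPM. Whether the EnVL difference is a change in those cells or RNA of other cells in the droplets was not tested. In MedFb2a it fell from 364 and 439 to 80.3 and 82 CPM (-2.32 ± 0.10). It rose in CapFb4, from 1893 and 1636 to 2631 and 3041 CPM (0.78 ± 0.08, adjusted p = 1.87e-08, edgeR), in MedFb1a, from 166 and 141 to 283 and 346 CPM (0.95 ± 0.12), and in CapFb1b, CapFb1c, Pc and Pr. The call in Pr was lost without W4 replicate 1 (adjusted p = 0.243, edgeR) and that in VSM without W4 replicate 2 (0.121). CapFb1a was at 1585 CPM at E12.5 and 1042 CPM at E13.5, and between 36.8 and 120 CPM in all later libraries.

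Bulk *Igfbp5* rose in gp38+CD26+, Ly51+gp38- and cTEC. In gp38+CD26+ it was 41.2, 107.1 and 116 CPM at P0 and 783, 1270 and 1954 CPM at W4, with no overlap (log2 fold change 3.85 ± 0.30, adjusted p = 5.73e-06, edgeR). The mesothelial genes *Upk3b*, *Msln* and *Lrrn4* had a summed level of 0 to 367 CPM (median 53.7) in the same libraries at P0 and 463 to 5311 CPM (median 4010) at W4, with none of the 3 at 0 throughout a group, and their part in the rise was not tested. In gp38+CD26- the level was 22.1, 82.5 and 164.8 CPM at P0 and 37.2, 78.4 and 118.9 CPM at W4 (adjusted p = 0.905, edgeR). In Ly51+gp38- it rose from 193, 231 and 408 to 373, 428 and 544 CPM (0.87 ± 0.19, adjusted p = 0.00833, edgeR). Of the subtypes this sort holds, Pc rose and VSM fell in single cells. In these libraries the 5 mural markers summed to 30202 to 40534 CPM (median 35607) at P0 and 88005 to 113586 CPM (median 99620) at W4. The 6 epithelial ones had medians of 53.2 and 413 CPM (2 and 1 of 6 at 0) and the 5 blood cell ones 13.3 and 199 CPM. The ages did not overlap in any of these lists, while the fibroblast markers, given with *Igfbp3*, did overlap. The part of these markers in the Ly51+gp38- values was not tested. In cTEC it was 0, 4.67 and 11.7 CPM at P0 and 140, 335 and 495 CPM at W4, with no overlap (6.30 ± 0.79, adjusted p = 8.13e-05, edgeR). In mTEC it was 48.1, 86.1 and 123.6 CPM against 57.4, 148.5 and 274 CPM, which passed only without W4 replicate 3 (log2 fold change 1.09, adjusted p = 0.0163 against 0.135 with it, edgeR). At W4 it was 22.4, 44.4 and 54.5 CPM in mTEChi and 417, 568 and 845 CPM in mTEClo (-3.69 ± 0.25, adjusted p = 2.11e-06, edgeR).

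The marker sums of other cell types were higher in the W4 cTEC libraries than in those of P0. The 5 fibroblast markers summed to 161.5 to 360 CPM (median 273, 2 of 5 at 0 in every library) at P0 and 449 to 2075 CPM (median 859, none at 0) at W4. The 3 mesothelial markers had medians of 1.23 and 330 CPM, the 4 endothelial ones 0 and 24.0 CPM, the 5 mural ones, among them *Enpep*, which encodes Ly51 and is also made by cTEC, 230 and 482 CPM, and the 5 blood cell ones 30.7 and 1195 CPM. Whether this RNA came from other cells, and its part in the cTEC values, was not tested. In the newborn wild type, *Igfbp5* was at 11.7 ± 2.76 CPM in PcTEC and 276 ± 142.6 CPM in post-Aire medullary cells (PAmTEC, n = 3).

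*Igfbp6* (chromosome 15, 102144186 to 102149512, plus strand), which prefers IGF2 over IGF1, was low in the early embryo and rose after birth in all 7 capsular and all 4 medullary fibroblast subtypes. *Igfbp7* (chromosome 5, 77349240 to 77408045, minus strand) showed the same direction. The 250 bases before the start of each gene are given because these 2 genes passed as higher at W4 in the largest number of subtypes (RefSeq promoters, GRCm38.p6; chr15:102143936-102144185, plus strand, and chr5:77408046-77408295, minus strand, both 5′ to 3′). Capitals mark matches on either strand to TATAAA, to GGGCGG, the core of the Sp1 box, or to CCAAT.
Igfbp6: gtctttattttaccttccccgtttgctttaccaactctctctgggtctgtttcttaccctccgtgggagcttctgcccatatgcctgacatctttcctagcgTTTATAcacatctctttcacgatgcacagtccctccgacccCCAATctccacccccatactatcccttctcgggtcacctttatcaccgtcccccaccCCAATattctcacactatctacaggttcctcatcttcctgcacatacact
Igfbp7: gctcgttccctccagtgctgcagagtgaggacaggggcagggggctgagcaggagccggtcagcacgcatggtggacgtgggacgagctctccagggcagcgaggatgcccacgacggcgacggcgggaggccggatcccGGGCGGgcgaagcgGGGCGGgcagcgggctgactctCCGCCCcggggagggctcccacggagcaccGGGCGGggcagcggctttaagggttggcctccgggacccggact
The *Igfbp6* window has a GC content of 49.6% and holds 1 TATAAA, on the reverse strand, and 2 CCAAT, and that of *Igfbp7* has 74% GC and holds 4 GGGCGG, 1 of them on the reverse strand. Of all 27025 RefSeq promoter windows of this length, 13% hold TATAAA, 32.9% GGGCGG and 34.5% CCAAT, and the median GC content is 52%. The site TTCNNNGAA of the STAT factors, found in 7.18% of all windows, is in neither of them.

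*Igfbp6* was highest in Mes at 2161 ± 2418 CPM (n = 7) and CapFb4 at 1302 ± 1434 CPM (n = 8), and lowest in EnA at 7.77 ± 11.6 CPM. In CapFb4 it was 0 at E12.5 (6 cells), 26.8 CPM at E13.5, 931 and 933 CPM at E16.5, 811 and 629 CPM at P0 and 3692 and 3396 CPM at W4 (W4 against P0, log2 fold change 2.39 ± 0.09, adjusted p = 2.58e-16, edgeR). The largest fold change was that of CapFb1b, from 34.8 and 36.0 to 1078 and 1023 CPM (4.87 ± 0.10, adjusted p = 1e-11, edgeR), where E12.5, E13.5 and E16.5 libraries had been at 1.04 to 9.82 CPM. The log2 fold change was above 0 in 17 of 17 subtypes and between 1.72 and 4.87 in the 15 that passed, none of which was lost when any 1 P0 or W4 library was left out. EnA, with 3 UMIs at P0, and EnVL did not pass. Sorted CD31+ cells at W4 held 0 *Igfbp6* counts in 6 libraries, which allows a level of up to 0.0395 CPM (3 counts over the group). The 3 endothelial subtypes were at 18.1 to 71.8 CPM in the droplets of the same age, which is a different assay. The W4 libraries of Pc, at 28.3 and 42.3 CPM, lay within that range, and those of VSM, at 21.3 and 94.4 CPM, were not both above it. Sorted Ly51+gp38- cells, which hold Pc and VSM, were at 0 to 4.42 CPM at P0 and 0 to 64.4 CPM at W4. Whether the droplets of endothelium, Pc and VSM held *Igfbp6* RNA of other cells was not tested. The differences called in EnC, Pc and VSM may therefore not be changes in those cells. The other 12 subtypes that passed were above 71.8 CPM in both W4 libraries. Apart from *Igfbp5* in EnVL and *Igfbp7* in newborn epithelium, RNA of other cells in the droplets was not looked at for the other genes. In the 2 W4 libraries capsular fibroblasts held 81.7% and 66.1% of *Igfbp6* UMIs, and mesothelium 9.94% and 28.1%.

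In bulk, *Igfbp6* rose in gp38+CD26+ from 116, 170 and 228 CPM (lowest, median, highest) to 1551, 2666 and 2919 CPM (log2 fold change 3.86 ± 0.24, adjusted p = 7.2e-07, edgeR), beside the mesothelial markers given above. In gp38+CD26- it rose from 22.5, 44.4 and 67.9 to 150, 176 and 289 CPM (2.35 ± 0.26), also with no overlap. In Ly51+gp38- it was 0, 3.06 and 4.42 CPM against 0, 6.17 and 64.4 CPM, and did not pass (adjusted p = 0.274, edgeR). In mTEC it rose from 11.1, 28.1 and 46.8 to 36.0, 95.9 and 106 CPM (1.48 ± 0.37, adjusted p = 0.0267, edgeR), a call lost without any of P0 replicates 1 to 4 or W4 replicates 4, 5 and 6 (adjusted p from 0.0531 to 0.0656). In cTEC it was 0.773, 6.81 and 11.9 CPM against 1.13, 22.6 and 184.8 CPM (adjusted p = 0.0428, edgeR), a call lost without P0 replicate 1, 2, 3, 4 or 6 or W4 replicate 3, 5 or 6 (adjusted p from 0.0564 to 0.18) and 1.71 on the log2 scale without W4 replicate 6, the library at 184.8 CPM. At W4 it was 75.9, 124.2 and 162 CPM in mTEChi and 0, 3.52 and 23.3 CPM in mTEClo, with no overlap (4.32 ± 0.95, adjusted p = 0.00618, edgeR). The log2 fold change was 5.29 without mTEClo replicate 2, and the difference did not pass with either prefix alone (adjusted p = 0.0675 for TXCK and 0.0553 for DFCK, edgeR).

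Over the 8 libraries of all ages, *Igfbp7* had its highest means in EnC at 3891 ± 3230 CPM and MedFb2a at 3775 ± 4395 CPM. EnC was the higher of them at P0 and MedFb2a at W4. The lowest mean was that of CapFb4 at 210 ± 174.8 CPM (SD, n = 8), the subtype in which *Igfbp5* and *Igfbp6* were second. In no subtype was it above 166 CPM at E12.5 or E13.5. In MedFb2a it was 9.24 CPM at E12.5, 13.9 CPM at E13.5, 1368 and 1365 CPM at E16.5, 3140 and 3035 CPM at P0 and 10915 and 10357 CPM at W4 (W4 against P0, log2 fold change 1.78 ± 0.06, adjusted p = 3.28e-10, edgeR). In EnC it was 3.93 CPM at E12.5, 5301 and 4424 CPM at P0 and 7533 and 8761 CPM at W4 (0.69 ± 0.11). In VSM it was 3235 and 3382 CPM at P0 and 6344 and 6946 CPM at W4. CapFb4 rose least, from 304 and 339 to 351 and 464 CPM (0.44 ± 0.11, adjusted p = 0.003, edgeR), and this call was lost without W4 replicate 2 (0.183). The call in EnA was lost without P0 replicate 1 (adjusted p = 0.0557, edgeR) or W4 replicate 2 (0.0822), and Pr did not pass (0.0695). At W4 medullary fibroblasts, 24.7% and 23.3% of the cells, held 49.9% and 43.3% of the *Igfbp7* UMIs.

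The bulk age effect of *Igfbp7* differed between the 4 nonepithelial populations (adjusted p = 4.72e-06, edgeR quasi-likelihood F test of the interaction), with the highest fold change in gp38+CD26-. There it was 164, 262 and 458 CPM at P0 and 2171, 2463 and 4044 CPM at W4, with no overlap (log2 fold change 3.38 ± 0.26, adjusted p = 5.28e-07, edgeR). In Ly51+gp38- it rose from 356, 541 and 699 to 592, 998 and 1455 CPM (0.99 ± 0.21, adjusted p = 0.00676, edgeR), beside the higher mural, epithelial and blood cell marker sums of W4 given with *Igfbp5*. In gp38+CD26+ it was 122.4, 224 and 324 CPM against 175.4, 317 and 731 CPM (adjusted p = 0.132, edgeR), and in CD31+ 692, 1097 and 1650 CPM against 1164, 1418 and 2190 CPM (0.307), with overlap in both. In cTEC it was 0 to 0.494 CPM at P0, from 7 counts over the 6 libraries, and 16.49, 46.3 and 118 CPM at W4 (adjusted p = 8.51e-06, edgeR), beside the other cell type markers given above. The test of whether the age effect differed between the 6 populations gave an adjusted p of 1.55e-09 for *Igfbp7*, 4.73e-16 for *Igfbp3*, 7.64e-06 for *Igfbp4*, 3.15e-05 for *Igfbp2*, 8.46e-05 for *Igfbp5* and 0.00136 for *Igf1* (edgeR quasi-likelihood F test of the interaction), 6 of 8 genes against 21.1% of all genes. *Igf1r* (0.407) did not pass, and *Igfbp6* did not pass in edgeR (0.107) but did in DESeq2 (0.00115).

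**Figure D4:**
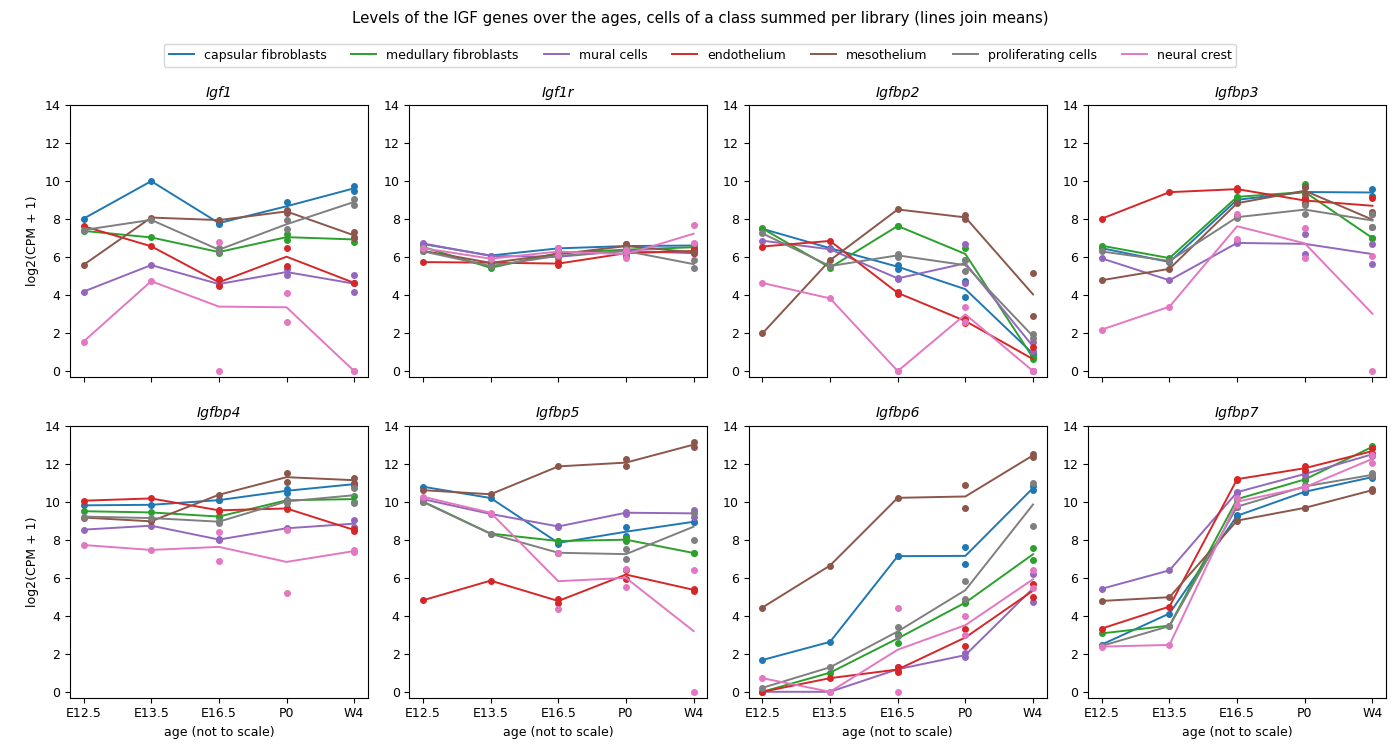
Level of each gene, as log2(CPM + 1) of the UMIs of a cell class summed per library, at the 5 ages (1 point per library, lines join the means, ages not to scale). *Igfbp6* and *Igfbp7* are highest at W4 in all 7 classes. For *Igfbp6*, neural crest rests on 2 UMIs from 7 cells in each W4 library. Whether the endothelial and mural droplets held *Igfbp6* RNA of other cells was not tested. The mean of *Igfbp2* is lower at W4 than at P0 in all 7 classes, and between P0 and W4 *Igfbp3* falls in medullary fibroblasts.

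Of the members, 2 were higher and 3 lower in mTEChi than in mTEClo at W4, against 10.2% of all genes higher and 6.24% lower, a comparison added after the members' values had been seen. *Igf1* and *Igfbp6* were the higher ones and *Igfbp2*, *Igfbp4* and *Igfbp5* the lower ones. The 5 mural markers were also lower in mTEChi, summing to 1733 to 2231 CPM against 2662 to 4511 CPM, as were the 6 epithelial ones, at 2934 to 3494 CPM against 4352 to 5199 CPM, both with no overlap. The 3 mesothelial markers had medians of 482 and 727 CPM and the 5 red cell ones 281 and 3013 CPM. The part of these in the differences was not tested. *Igf1r* was 9.82, 14.9 and 27.5 CPM in mTEChi and 0, 13.2 and 20 CPM in mTEClo (adjusted p = 0.634, edgeR). *Igfbp3* did not pass (0.195), and *Igfbp7*, at 2.05, 4.79 and 10.1 CPM against 0.226, 29.4 and 41.6 CPM, did not pass (0.119) except without mTEClo replicate 1 (0.00763) or in DESeq2 (0.0413).

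In newborn thymi, 1 of 118 tests of a member in 18 subtypes passed between the libraries labelled *Tbx1*+/-*Crkl*+/- and the wild type, against 0.0481% of all tests. This was *Igfbp5* in MedFb2a, at 90.3, 102 and 102 CPM in the mutant libraries and 355, 269 and 180 CPM in the wild type, with no overlap (log2 fold change -1.41 ± 0.26, adjusted p = 0.0269, edgeR). The call was lost without mutant replicate 1 (-1.37, adjusted p = 0.164), mutant replicate 3 (-1.43, 0.115) or wild-type replicate 2 (-1.41, 0.13). The log2 fold change of *Igfbp5* was below 0 in 11 of the 11 nonepithelial subtypes tested, from -1.41 to -0.20, and 7 of them had an unadjusted p under 0.05. In the 4 epithelial subtypes tested it was below 0 in 2 and above 0 in 2, from -1.55 to 0.54. That of *Igf1r* was above 0 in 18 of 18 subtypes, with no adjusted p below 0.423. Other genes of the pathway were as one-sided, with *Insr* above 0 in 11 of 11 and *Foxo3* in 14 of 14 subtypes, while *Akt1* was below 0 in 14 of 18. The share over all genes was not counted. The wild-type libraries differed in depth and in *Igf1r*. Those with medians of 2577, 3631 and 4686 UMIs a cell held 190, 131.1 and 113.03 CPM in capsular fibroblasts and 328, 237 and 162 CPM in epithelium. The mutant libraries had medians of 2391 to 2551 UMIs, and the part of depth in this direction was not tested. *Igf1* was lower in 9 of 11 and *Igfbp6* in 4 of 4 nonepithelial subtypes, with lowest adjusted p of 0.269 and 0.102, and each was lower in 1 of 2 epithelial ones. *Igfbp7* was lower in 12 of 13 nonepithelial and higher in 5 of 5 epithelial subtypes, with no adjusted p below 0.323. The difference between these 2 kinds of cell was not tested, and the 13 nonepithelial subtypes include the thymocytes among the sorted cells. In bulk at P0, *Igfbp7* was at most 0.494 CPM in cTEC and 1.6 CPM in mTEC. The newborn wild-type means of the 5 epithelial subtypes tested ran from 97.8 CPM in PrTEC to 195 CPM in ItTEC. Whether these epithelial droplets held *Igfbp7* RNA of other cells was not tested. The subtypes of a library share that library, so these counts of direction are no independent support. At an unadjusted p under 0.05 there were 31 of the 118 tests of a member and 7828 of 116534 over all genes.

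Among the other genes of the pathway, the second ligand and the inhibitory adaptor fell with age in bulk. *Igf2*, the fetal ligand, fell in both fibroblast populations, in Ly51+gp38- and in CD31+. In gp38+CD26- it was 294, 545 and 752 CPM at P0 and 3.57, 6.57 and 8.98 CPM at W4 (log2 fold change -6.21 ± 0.29, adjusted p = 7.23e-09, edgeR), and in CD31+ 303, 535 and 983 CPM against 7.66, 10.2 and 14.5 CPM (-5.62 ± 0.33). *Igf2r*, which clears IGF2, fell in Ly51+gp38- (-2.44 ± 0.25), gp38+CD26+ (-1.04 ± 0.25) and gp38+CD26- (-0.67 ± 0.21). Over the list of other ligands, receptors and carriers, 0 of 19 tests of a gene in a population were higher and 7 lower at W4, with a median log2 fold change of -0.67. Of all tests in the 6 populations 7.53% were higher and 6.10% lower, with medians of all genes from -0.09 to 0.01. *Grb10*, an adaptor that restrains the IGF1 and insulin receptors, fell in all 6 populations, with a log2 fold change of -3.02 ± 0.34 in cTEC, and in gp38+CD26- from 1954, 2295 and 3045 to 276, 303 and 458 CPM. Over the signalling genes below the receptor, 2 of 64 tests were higher and 12 lower (median -0.36), against the same 7.53% and 6.10%. *Irs1*, a docking protein of the receptor, fell in cTEC (-2.15 ± 0.34) and *Foxo1*, a transcription factor held in check by the pathway, rose in gp38+CD26+ (1.61 ± 0.36).

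Of the genes that cleave binding proteins or restrain that cleavage, 6 of 33 tests were higher and 1 lower at W4 (median log2 fold change 0.38), against 7.53% and 6.10% of all tests. *Htra1*, a secreted serine protease, rose in gp38+CD26-, from 278, 353 and 402 to 628, 749 and 850 CPM (log2 fold change 1.24 ± 0.12, adjusted p = 3.94e-06, edgeR), and in cTEC (3.72 ± 0.36), beside the other cell type markers of the W4 cTEC libraries given above. Its relative *Htra3* rose in gp38+CD26+ (1.93 ± 0.25) and gp38+CD26- (1.96 ± 0.18), and *Stc2*, an inhibitor of PAPP-A, in gp38+CD26+ (2.57 ± 0.54). Of the genes of growth hormone input, 2 of 36 tests were higher and 9 lower (median 0.12), against the same 7.53% and 6.10%. *Cish*, a feedback inhibitor induced by STAT5, fell in Ly51+gp38-, gp38+CD26+, gp38+CD26- and cTEC, in gp38+CD26- from 24.5, 46.5 and 60.6 to 1.94, 7.60 and 15.8 CPM (-2.32 ± 0.40). *Socs2*, of the same family, fell in gp38+CD26+ (-2.22 ± 0.33), Ly51+gp38- (-1.65 ± 0.28) and gp38+CD26-, and rose in CD31+, from 154.5, 169 and 229 to 260, 333 and 362 CPM (0.96 ± 0.14). *Ghr*, the growth hormone receptor, fell in gp38+CD26+ and in Ly51+gp38-, in the latter from 64.4, 79.5 and 93.9 to 2.80, 16.8 and 28.8 CPM, and *Stat5b* rose in cTEC (1.96 ± 0.28). In single cells, against 13.7% of all pairs of gene and subtype higher and 13.9% lower, *Igf2* fell in 16 of 17 subtypes and *Grb10* and *Cish* in 15 each. *Socs2* fell in 14 and rose in 1, *Htra1* rose in 13 and fell in 2, and *Htra3* rose in 12. *Akt1* fell in 14, *Irs2* fell in 13 and *Foxo1* rose in 12. *Ghr* rose in 2 and fell in 2 of the 17, unlike its fall in 2 bulk populations.

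The genes whose levels ran most like those of the members were found over the 138 sums of a NETS subtype and library with at least 20 cells, among 9098 genes, with Pearson's r of log2(CPM + 1); these sums share libraries, depth and cell states, so r is a description only. For *Igf1* they were *Tmem119* (0.80), *Clmp* (0.79) and *Col8a2* (0.79). For *Igfbp6* they were *Ahnak2*, *Aldh1a1* and *Lrrn4cl* (0.89 each), and for *Igfbp7* *Mndal* (0.92), *Ifi203* (0.92) and *Tmem140* (0.91). *Igfbp2* ran most like *Naca*, *Sub1* and *Eif3h* (0.78 each), *Igfbp3* like *Emp1* (0.75), *Pnp* (0.72) and *Cd34* (0.72), *Igfbp4* like *Dap* (0.71), *B4galt1* (0.71) and *Serpinf1* (0.70), and *Igfbp5* like *Fras1* (0.74), *Atp1b1* (0.73) and *Cobl* (0.71). *Igf1r* had the weakest likeness, with *Afap1* (0.62), *Ctdsp2* (0.60) and *Nfia* (0.59). Between members, r was highest for *Igf1* and *Igfbp4* (0.69) and lowest for *Igfbp2* and *Igfbp6* (-0.59), and it was 0.25 for the neighbours *Igfbp2* and *Igfbp5*.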

How the data were processed

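The authors deposited UMI counts per gene and cell of the NETS and of the newborn cells, with a subtype label for each cell, and raw gene counts of the bulk libraries; their processing notes name Cell Ranger 3.1.0, STAR 2.5.3a, HTSeq and the builds mm10 and GRCh38. Cells had been filtered on genes detected and mitochondrial share, and doublets removed, before deposit. Counts assigned to no gene, 7.81% to 16.6% of a bulk library, were left out, as was 1 bulk library under 1e+06 gene counts. UMIs were summed per subtype and library and given as CPM; levels used sums of at least 5 cells and tests sums of at least 20. Counts were tested with edgeR 4.0.16 (quasi-likelihood F test, filterByExpr, TMM factors, Benjamini-Hochberg adjustment over all genes, threshold 0.05) in R 4.3.3: W4 against P0 per bulk population, the interaction of age and population, the ages within each NETS subtype, and the newborn genotypes. The edgeR test was tested on simulated counts. Intervals and floors (3 UMIs over a group) cover counting error only. The members, gene lists and tests were chosen with earlier results of these data known; the comparison of mTEChi with mTEClo was added after seeing the members' values. In bulk and in single cells, the text names only some of the pathway genes past the threshold. A gene, population or subtype not named may have passed too. Alternatives were DESeq2 1.42.0, other factors, no filter, a block on replicate number, prefix terms and each library left out. Same-numbered libraries did not deviate together (mean correlation 0.005 in the NETS, and 0.089, -0.007 and -0.303 in the newborn data). With 2 or 3 libraries a group this cannot show whether the numbers pair samples, and the main single-cell fits did not pair them. In bulk, the title numbers of the sorts of an age run in parallel, as in mTEChi and mTEClo. Whether such libraries came from the same animals was not given, and the bulk fits did not pair them. The E16.5 libraries differed less (chi-square per degree of freedom 2.91) than those of P0 (62.8) or W4 (22.4), and were kept apart. This chi-square takes each UMI as a separate draw, so it cannot tell whether the E16.5 libraries came from 1 cell suspension. Their likeness enters the spread between libraries behind the single-cell tests of W4 against P0, whose p-values may be too small for that reason.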

Additional observations from a re-analysis of the deposited data

Results flagged for a closer look

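In bulk, 10 groups of a gene, population and age (8.93% of those tested, where chance gives about 5%) had 1 library far from the others. *Igf1* was at 2542 CPM in gp38+CD26+ W4 replicate 1 (next library 1337), at 380.4 CPM in Ly51+gp38- W4 replicate 6 (next 105), at 1001 CPM in gp38+CD26- W4 replicate 6 (next 481) and at 11.5 CPM in cTEC P0 replicate 1 (next 2.47). *Igfbp2* was at 143.98 CPM in mTEC W4 replicate 3 (next 60.9), at 39.7 CPM in gp38+CD26+ W4 replicate 4 (next 9.76) and at 26.1 CPM in gp38+CD26- W4 replicate 5 (next 6.21). *Igfbp4* was low, at 493 CPM, in gp38+CD26+ W4 replicate 1 (next 632), *Igfbp6* was at 184.8 CPM in cTEC W4 replicate 6 (next 47.5), and *Igfbp7* was at 4044 CPM in gp38+CD26- W4 replicate 5 (next 2783).

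The effect of age differed between the 6 bulk populations for 6 genes, by the edgeR quasi-likelihood F test of the interaction. The adjusted p was 0.00136 for *Igf1*, 3.15e-05 for *Igfbp2*, 4.73e-16 for *Igfbp3*, 7.64e-06 for *Igfbp4*, 8.46e-05 for *Igfbp5* and 1.55e-09 for *Igfbp7*.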

How the results depend on the processing

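Of the calls between P0 and W4, 8 of 19 in bulk and 67 of 88 in single cells passed under every alternative run, as did 4 of 5 between mTEChi and mTEClo and 0 of 1 between genotypes; DESeq2 kept 19 of 19 and 78 of 88 of the former. Alternatives added after seeing the data kept 82 of 88 single-cell calls with the E16.5 libraries summed and 78 of 82 with P0 and W4 alone. Members called moved from 0 to 1 in CD31+ with DESeq2, with no filter or with prefix as a term, from 3 to 1 in Ly51+gp38- with TXCK alone, and with DFCK alone from 5 to 3 in cTEC, from 2 to 0 in mTEC and from 4 to 2 in gp38+CD26+. Between genotypes they moved from 1 to 2 with DESeq2, to 7 with no filter and to 3 with a replicate block; the block gave 91 calls against 88 between P0 and W4. DESeq2's interaction was run on the genes edgeR's filter kept.

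Leaving out 1 library at a time gave 78 to 96 calls between P0 and W4 in single cells and 0 to 5 between genotypes. In bulk, the members called were 5 to 6 between mTEChi and mTEClo, 1 to 3 for mTEC, 0 to 2 for CD31+, 4 to 5 for both cTEC and gp38+CD26+, 3 to 3 for Ly51+gp38- and 5 to 5 for gp38+CD26-.

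Log2 fold changes that reversed came from differences that had not passed, except that of *Igf1* in EnA (-5.24 to 0.79 without 1 library, the highest without P0 replicate 1). With DFCK alone they were -2.60 for *Igfbp5* in CD31+, -0.15 for *Igf1* and -0.20 for *Igfbp4* in Ly51+gp38-, -0.44 for *Igf1* in gp38+CD26- and -0.028 for *Igfbp2* in cTEC, and with TXCK alone 0.70 for *Igfbp5* in gp38+CD26- and -0.35 for *Igfbp3* in mTEC. For *Igfbp2* in gp38+CD26+ they were 0.013 with all libraries, 0.030 with DESeq2, 0.021 with no filter, 0.023 with RLE factors and 0.65 with TXCK alone. Without 1 library, values lay from -0.019 to 0.11 for *Igfbp4* and -0.74 to 1.36 for *Igfbp5* in CD31+, -0.79 to 0.29 for *Igf1r* in Ly51+gp38-, -0.89 to 0.24 for *Igfbp2* in gp38+CD26+, -0.26 to 0.25 for *Igfbp5*, -0.14 to 0.36 for *Igf1* and -0.38 to 0.16 for *Igf1r* in gp38+CD26-, and -0.073 to 0.19 for *Igfbp3* in mTEC. The cause was not tested.

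The single-cell tests rest on 2 libraries at E16.5, P0 and W4 and on 1 at E12.5 and E13.5, which are assumed to vary like the others.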
